A study of Mus musculus with 2 samples.

Results

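Antigen presentation and interferon response genes were described in brain tissue from 1 posterior and 1 anterior position, each with 1 RNA sequencing library. The set held 39 genes of 53055 joined between the libraries, chosen by symbol from the posterior table and matched to the anterior table by gene identifier. All 39 were found in both libraries, and Tmem173, which the posterior table calls Sting1, was matched by identifier. Both libraries were made from polyadenylated RNA of wild-type male C57BL/6J mice aged 14 weeks, an inbred laboratory strain. The tissue was taken at positions matched to posterior and to anterior sections that had been imaged by MERFISH, a microscopy method that counts single RNA molecules in sections. The labels do not say whether the tissue came from 1 animal or several. The posterior table held 147138183 estimated fragments, quantified per transcript with Salmon. The anterior table gave 43558839 fragments, recovered per gene after alignment with HISAT2. Position, library and quantification method differed together and cannot be told apart. There were no replicates, so the values compare these libraries and carry no p-value.

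Cells show fragments of their own proteins to T cells on class I molecules, which pair a heavy chain with beta-2-microglobulin. The peptides are cut by the proteasome, whose immunoproteasome subunits replace standard ones under interferon, and are pumped into the endoplasmic reticulum by the Tap1 and Tap2 transporter. Class II molecules show peptides from engulfed material, and in healthy brain they are found mainly on macrophages at its borders, with little on resting microglia. Interferons bind cell surface receptors that activate STAT and IRF transcription factors, and these switch on a large set of antiviral genes that are kept low in uninfected tissue.

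Most members were expressed at low to moderate levels, with B2m far above the rest. FPKM, which divides fragments by the length of the gene and by the size of the library, allowed levels to be ranked within each library. B2m, the shared light chain of class I molecules, had the highest level of any member, 87.3 FPKM in the posterior and 81.7 FPKM in the anterior library. Among 21802 protein-coding genes it ranked 844 by posterior FPKM and 511 by anterior FPKM. The lowest member of the posterior library was Ciita, with 0.0868 FPKM, and that of the anterior library was Nlrc5, with 0.1096 FPKM. In the posterior library 35 members reached 1 FPKM and 14 reached 10 FPKM, against 28 and 7 members in the anterior library. The median over the 39 members was 3.51 FPKM in the posterior and 2.35 FPKM in the anterior library. Over the 13339 genes that reached 1 FPKM in one library or both, a set that leaves out 4 of the members, the median was 12.1 and 7.03 FPKM. The lengths used for scaling differed between the tables, so FPKM was used here to order genes within a library and not to compare libraries.

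**Figure D1:**
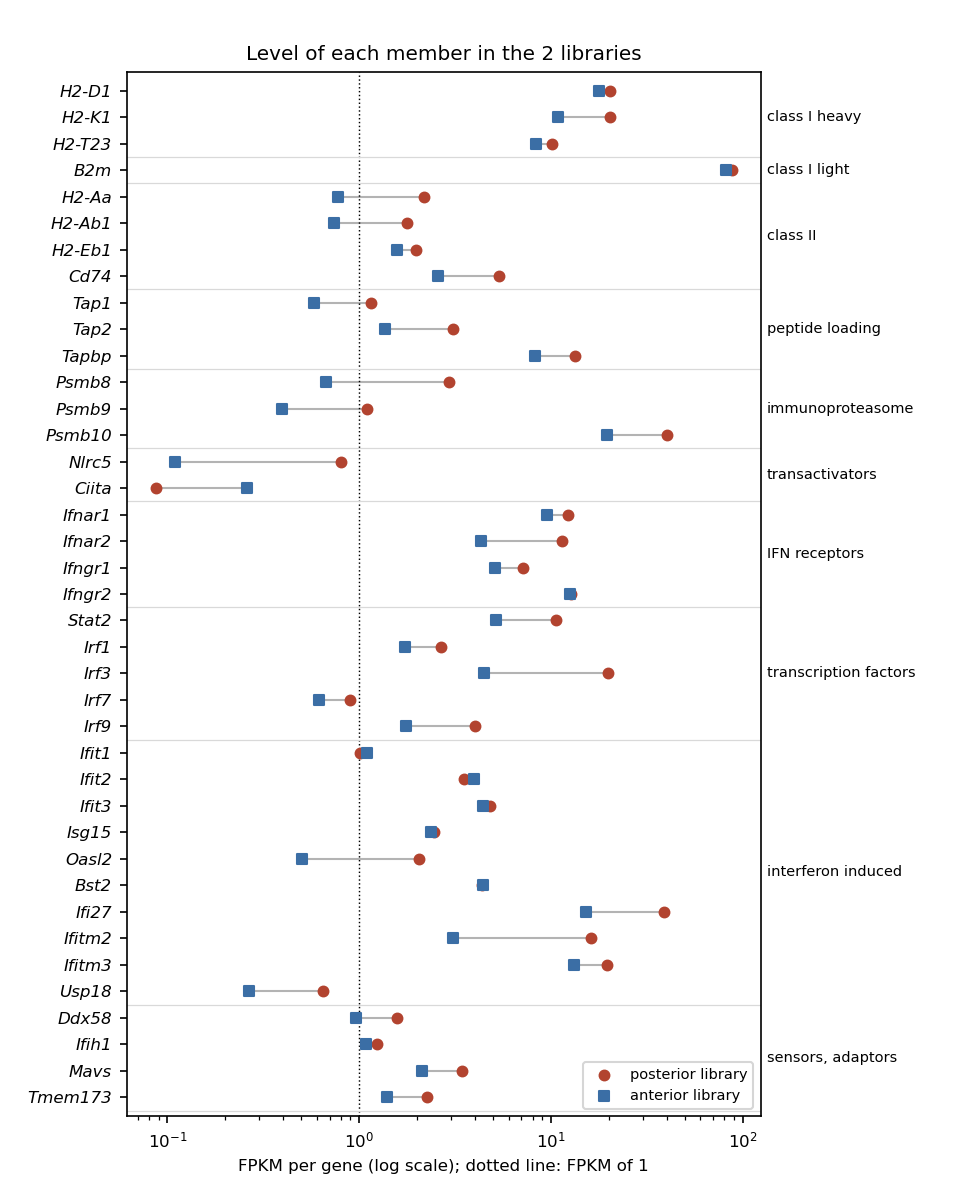
Level of each of the 39 members in FPKM on a log scale, in the posterior library (circles) and the anterior library (squares), grouped by role; the dotted line marks an FPKM of 1. B2m stands at 87.3 FPKM in the posterior and 81.7 FPKM in the anterior library, and Ciita and Nlrc5 are the lowest.

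The members as a whole took nearly the same share of each library. Libraries were compared by fragment share, the fragments of a gene over all fragments in protein-coding genes, which needs no gene length. The members held 62530 posterior and 19911 anterior fragments. The ratio of their summed shares, posterior over anterior, was 0.991, with a 95% interval of 0.975 to 1.007. Intervals throughout are exact Clopper-Pearson intervals that cover counting error only. They leave out differences between animals, dissections and methods, and without molecular identifiers the fragments cannot be taken as independent molecules.

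Of the members expressed highly enough to compare, 1 was past a 2-fold difference. The comparison of single genes used log2 of CPM plus 0.5, where CPM scales the fragments in protein-coding genes to a total of 1000000, centred on the median of the 13339 protein-coding genes that reached 1 FPKM. This scale understates the difference of low genes. Of the 35 members in that set, 1 was past 2-fold on the posterior side, the membrane protein gene Ifitm2, beside 8.19% of all genes compared. None was past 2-fold on the anterior side, beside 1.84% of all genes compared. The other 34 lay within 2-fold, 21 of the 35 lay above 0 and 14 below, and their median was 0.08, against 0 for all genes by construction. The differences ran from -0.50 for H2-T23 to 1.64 for Ifitm2. Nlrc5, Ciita, Irf7 and Usp18 did not reach 1 FPKM in either library and were not compared. The interval of the share ratio, without pseudocount or centring, lay above 1 for 14 of the 35 members, below 1 for 10, and held 1 for 11. At this depth such intervals are common: 40.2% of all genes compared had one above 1 and 38.7% one below 1. The 4 members that were not compared comprise 1 with an interval above 1, 1 below 1 and 2 that hold 1.

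**Figure D2:**
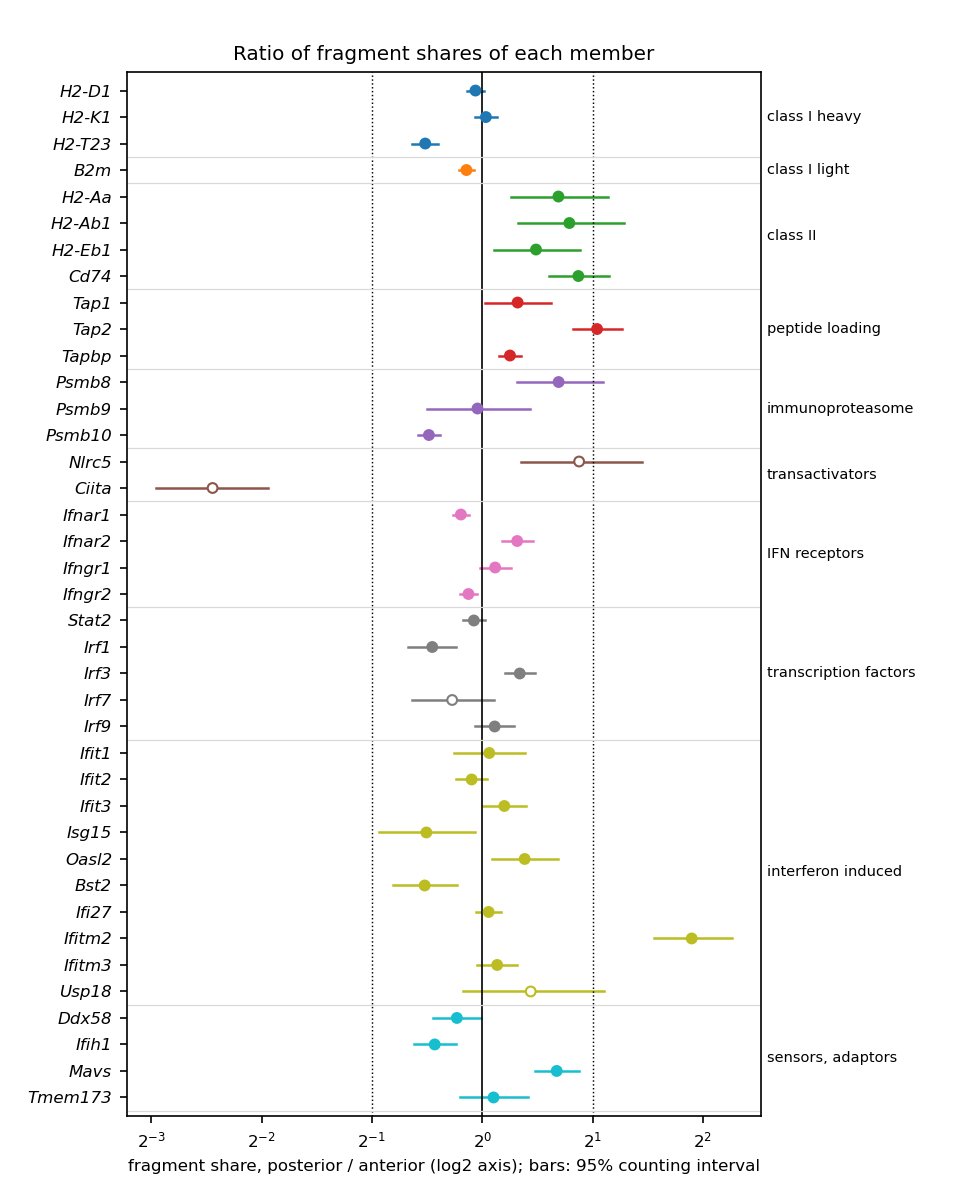
Ratio of fragment shares, posterior over anterior, of each of the 39 members on a log2 axis, with bars for the 95% counting interval; open circles are the 4 members below an FPKM of 1 in both libraries, colours mark roles, and dotted lines mark 2-fold. Ifitm2, at 3.73, is the highest, all 4 class II members lie above 1, and Ciita, at 0.184, is the lowest.

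Class I transcripts were present in both libraries at similar shares. H2-K1 and H2-D1 encode the classical heavy chains that present peptides to T cells. H2-D1 had 5089 posterior and 1676 anterior fragments, a share ratio of 0.958 (interval 0.907 to 1.013). H2-K1 had 3368 posterior and 1039 anterior fragments, a share ratio of 1.023 (0.954 to 1.098). Counting error alone covers both differences. H2-T23, which encodes the nonclassical Qa-1 molecule that engages receptors on NK cells, was the exception, with 1947 posterior and 879 anterior fragments and a share ratio of 0.699 (0.645 to 0.758). B2m had 7359 posterior and 2565 anterior fragments, a share ratio of 0.905 (0.866 to 0.947). In the posterior library H2-K1 and H2-D1 stood at 20.3 and 20.2 FPKM, while in the anterior library they stood at 10.9 and 17.8 FPKM.

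The heavy chain genes share sequence with other genes, and how each program placed fragments that match several genes was not tested. H2-D1 lies at chr17:35262730-35267499 on the plus strand and H2-K1 at chr17:33996017-34000333 on the minus strand of mm10. Of the words of 31 bases in their GENCODE M21 transcripts, 26.9% of those of H2-D1 and 22.8% of those of H2-K1 also occur in transcripts of other genes, on either strand. H2-K1 alone holds 13.8% of the words of H2-D1. For H2-T23 the share was 25.8%, led by the pseudogene H2-T-ps with 12.5%. B2m shares no such word with any other gene. The coding sequences of H2-D1-202 and H2-K1-201 matched at 988 of 1080 aligned bases, or 91.48%, and differed at 92. The first pair of stretches printed here, each of 60 bases, holds no base that tells the genes apart, while the second pair holds 15. They are the most and the least alike stretches of that length, and they lie close together, so a longer fragment can cover bases of both. Coding positions are counted from the start codon, and capitals mark the bases that differ.
H2-D1, coding bases 434 to 493: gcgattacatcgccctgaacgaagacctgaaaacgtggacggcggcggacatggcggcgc
H2-K1, coding bases 425 to 484: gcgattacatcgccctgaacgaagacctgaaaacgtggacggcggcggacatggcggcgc
H2-D1, coding bases 501 to 560: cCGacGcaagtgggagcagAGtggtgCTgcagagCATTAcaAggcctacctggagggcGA
H2-K1, coding bases 492 to 551: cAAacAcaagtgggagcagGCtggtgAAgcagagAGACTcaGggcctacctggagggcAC

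Class II genes took a larger share of the posterior library, each of them by less than 2-fold. H2-Aa and H2-Ab1 encode the paired chains of the I-A molecule, and Cd74 encodes the invariant chain that guides class II molecules through the cell. H2-Aa had 271 posterior and 53 anterior fragments, a share ratio of 1.61 (1.199 to 2.21). H2-Ab1 had 241 posterior and 44 anterior fragments, a share ratio of 1.73 (1.25 to 2.44). Cd74, the most abundant of the group, had 765 posterior and 132 anterior fragments, a share ratio of 1.83 (1.52 to 2.22). H2-Eb1 encodes the beta chain of the I-E molecule, whose alpha chain C57BL/6 mice do not make. It had 302 posterior and 68 anterior fragments, a share ratio of 1.40 (1.07 to 1.85). All 4 intervals lay above 1, as did those of 40.2% of all genes compared. The summed ratio was 1.68 (1.48 to 1.91), from 1579 posterior and 297 anterior fragments. H2-Eb1 did not keep its side: its centred log2 difference was 0.38 by fragment share, -0.37 by FPKM and -0.17 when posterior fragments were taken from protein-coding transcripts alone. At most 1.4% of the words of any of these genes occur elsewhere. In bulk tissue, fewer cells of a type and less RNA per cell cannot be told apart.

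Markers of the cells that carry class II molecules were set beside these values. The 8 border macrophage markers summed to 9.89 CPM posterior and 7.49 CPM anterior, a ratio of 1.32 (1.17 to 1.498), and none of the 8 was at 0. Their highest levels were those of Pf4, at 1.31 FPKM posterior and 0.949 FPKM anterior, and of Cbr2, at 1.28 and 0.371 FPKM. By fragment share the ratio was 0.732 (0.451 to 1.22) for Pf4 and 1.77 (1.07 to 3.11) for Cbr2. Of the 8 intervals, 3 lay above 1, 1 below 1 and 4 held 1. The mannose receptor gene Mrc1 had 493 posterior and 83 anterior fragments, a share ratio of 1.87 (1.48 to 2.39). Cd163, a scavenger receptor gene of the same list, went the other way with 178 posterior and 97 anterior fragments, a share ratio of 0.579 (0.4497 to 0.7496). The 6 dendritic cell markers summed to a ratio of 0.937 (0.877 to 1.001), but its main carriers went opposite ways, Flt3 with a share ratio of 1.76 (1.57 to 1.99) and Zbtb46 with 0.566 (0.519 to 0.617). Xcr1 of this list had 83 posterior and 2 anterior fragments, a share ratio of 13.1 (3.51 to 109.9), and Clec9a had 1 fragment in each library. Of the B cell markers, Ms4a1 had 85 posterior and 2 anterior fragments, a share ratio of 13.4 (3.60 to 112.6). Cd79a and Cd79b had 24 posterior fragments each and 7 and 14 anterior fragments. The 5 B cell markers together gave a ratio of 0.395 (0.371 to 0.420), with Ighm at 0.376 (0.353 to 0.401). The part of these cells in the class II values was not tested.

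By fragment share the peptide loading genes were on the posterior side, and the immunoproteasome genes were divided. Tap1 and Tap2 form the peptide transporter, and Tapbp encodes tapasin, which holds class I molecules to it. Tap2 had 1232 posterior and 189 anterior fragments, a share ratio of 2.06 (1.76 to 2.41), which the pseudocount brought to a log2 difference of 0.96, just inside the 2-fold rule. Tap1 had 459 posterior and 116 anterior fragments, a share ratio of 1.25 (1.02 to 1.54). Tapbp had 3760 posterior and 997 anterior fragments, a share ratio of 1.19 (1.11 to 1.28). All 3 intervals lay above 1, as did those of 40.2% of all genes compared. By FPKM the centred log2 differences were -0.02 for Tap1, 0.31 for Tap2 and 0.02 for Tapbp. With protein-coding transcripts alone that of Tap2 fell from 0.96 to 0.33, and those of Tap1 and Tapbp were 0.16 and 0.34. Tap2 and Tapbp lie under other genes for 18.5% and 29.0% of their exonic bases, against 3.9% for Tap1, and the part of this overlap was not tested.

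Of the 3 immunoproteasome subunits, 1 was higher in the posterior library beyond counting error, 1 lower and 1 neither. Psmb8 had 343 posterior and 67 anterior fragments, a share ratio of 1.62 (1.24 to 2.13). It lies under other genes for 14.7% of its exonic bases, and its log2 difference of 0.55 became 0.07 with protein-coding transcripts alone. Psmb9 had 163 posterior and 53 anterior fragments, a share ratio of 0.971 (0.708 to 1.350). Psmb10 had 2772 posterior and 1223 anterior fragments, a share ratio of 0.715 (0.669 to 0.766). Psmb10 also stood far above the other subunits, at 40.3 FPKM in the posterior and 19.6 FPKM in the anterior library, where Psmb8 and Psmb9 had 2.92 and 1.10 FPKM in the posterior and 0.671 and 0.397 FPKM in the anterior library. The genes for Tap1, Tap2, Psmb8 and Psmb9 sit side by side on chromosome 17, between 34181988 and 34216321 of mm10, while Psmb10 is on chromosome 8.

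The master regulators of both presentation pathways were near the lower limit. Nlrc5, the transactivator of class I genes, had 198 posterior and 34 anterior fragments, a share ratio of 1.84 (1.27 to 2.73). Ciita, the transactivator of class II genes, had 53 posterior and 91 anterior fragments, a share ratio of 0.184 (0.128 to 0.261). By fragment share Ciita thus lay on the anterior side while all 4 class II members lay on the posterior side. Both regulators were below 1 FPKM in both libraries and were left out of the 2-fold counts, except where no filter on low values was set.

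Interferon receptor genes were expressed at moderate levels in both libraries. Ifnar1 and Ifnar2 encode the receptor of type I interferons, and Ifngr1 and Ifngr2 that of interferon gamma. Ifnar1 had 5739 posterior and 2071 anterior fragments, a share ratio of 0.875 (0.832 to 0.9201). Its partner Ifnar2 had 2072 posterior and 525 anterior fragments, a share ratio of 1.25 (1.13 to 1.37). The chains of this receptor thus differed in opposite directions, beyond counting error. Ifngr2 had 5033 posterior and 1732 anterior fragments, a share ratio of 0.917 (0.868 to 0.969), and Ifngr1 had a share ratio of 1.084 (0.984 to 1.197). The 4 receptors lay between 7.10 and 12.7 FPKM in the posterior and between 4.32 and 12.6 FPKM in the anterior library. The interferon genes were at or near 0, with no fragment of Ifnb1 or Ifna4 in either library, and 1 posterior and 0 anterior fragments of Ifng. A count of 0 allows up to 3 fragments.

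By share ratio the 5 transcription factors lay within 2-fold. Of their intervals, 1 lay above 1, 1 below 1 and 3 held 1, against 40.2% above and 38.7% below among all genes compared. Stat2 and Irf9 belong to the complex that drives type I interferon genes. Stat2 had 3346 posterior and 1113 anterior fragments, a share ratio of 0.949 (0.886 to 1.016), and Irf9 had 1182 and 345, a share ratio of 1.081 (0.958 to 1.223). Irf3, which is activated by sensors of foreign nucleic acid, had 2262 posterior and 564 anterior fragments, a share ratio of 1.27 (1.15 to 1.39). With protein-coding transcripts alone its log2 difference of 0.33 became -0.71. Irf1, an interferon gamma target, had 581 posterior and 251 anterior fragments, a share ratio of 0.731 (0.629 to 0.851). Irf7, which amplifies the type I response, had 223 posterior and 85 anterior fragments, a share ratio of 0.828 (0.642 to 1.076).

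The 10 interferon-induced genes lay on both sides of the comparison. Of these, 3 had an interval above 1, 2 below 1, and 5 held 1, against the 40.2% above and 38.7% below among all genes compared. Ifitm2, a membrane protein gene that restricts virus entry, had 874 posterior and 74 anterior fragments, a share ratio of 3.73 (2.94 to 4.79). By the centred difference it alone of the 35 members compared was past 2-fold, and it reached 16.1 FPKM in the posterior and 3.09 FPKM in the anterior library. Its neighbour Ifitm3, with a like role, had 1131 posterior and 325 anterior fragments, a share ratio of 1.098 (0.970 to 1.246). Ifitm2, at chr7:140954837-140955987 on the minus strand of mm10, lies under another gene for 40.9% of its exonic bases and shares 55.5% of its words with other genes, 38.1% with Gm45717. It therefore drops out when genes with at least 10% of shared words or exonic overlap are left out. None of the 24 members still compared was then past 2-fold, beside 4.71% of all genes on the posterior side. The part of this shared sequence in the difference was not tested.

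Isg15 and Bst2 lay on the anterior side. Isg15 encodes a ubiquitin-like protein that is joined to other proteins, and had 145 posterior and 65 anterior fragments, a share ratio of 0.704 (0.522 to 0.958). Bst2, or tetherin, holds budding viruses at the cell surface, and had 320 posterior and 145 anterior fragments, a share ratio of 0.697 (0.571 to 0.853). Oasl2, a relative of the RNA-sensing OAS enzymes, lay on the posterior side with 484 posterior and 117 anterior fragments, a share ratio of 1.31 (1.065 to 1.61). Oasl2 turned with the choice of transcripts, from a log2 difference of 0.33 over all of them to -0.61 with protein-coding transcripts alone. Ifi27, the most abundant of this group, had 2675 posterior and 811 anterior fragments, a share ratio of 1.041 (0.962 to 1.127). Usp18, which removes Isg15 from proteins, had 116 posterior and 27 anterior fragments, a share ratio of 1.36 (0.886 to 2.145).

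The 3 Ifit genes, whose proteins bind viral RNA, were close to equal. Ifit1 had 351 posterior and 106 anterior fragments, a share ratio of 1.045 (0.839 to 1.311). Ifit2 had 1681 posterior and 567 anterior fragments, a share ratio of 0.936 (0.8502 to 1.031). Ifit3 had 1030 posterior and 283 anterior fragments, a share ratio of 1.149 (1.006 to 1.315). Ifit3 shares 61.8% of its words with its neighbour Ifit3b, which had 602 posterior and 139 anterior fragments. Their coding sequences differ at 11 of 1212 bases, and whether fragments between them were assigned correctly was not tested. These stretches are printed because the first is identical in both genes and the second holds 4 of the 11 differing bases, in capitals.
Ifit3, coding bases 34 to 93: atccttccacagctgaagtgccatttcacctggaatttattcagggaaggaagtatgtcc
Ifit3b, coding bases 34 to 93: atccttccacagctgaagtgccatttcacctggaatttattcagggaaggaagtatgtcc
Ifit3, coding bases 229 to 288: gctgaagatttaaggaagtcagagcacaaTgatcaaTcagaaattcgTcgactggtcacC
Ifit3b, coding bases 229 to 288: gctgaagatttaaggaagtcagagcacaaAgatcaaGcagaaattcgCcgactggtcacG

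Interferon-induced genes carry short promoter elements, the ISRE bound by the complex of Stat2 and Irf9 and the GAS bound by STAT dimers. Promoters from RefSeq, build GRCm38.p6, were matched for 31 members, and the 250 bases before each start were searched on both strands. The ISRE core, spelled GAAANNGAA or TTCNNTTTC on the other strand, was found in 9 of the 31, or 29.0%, beside 7.16% of 27025 promoters of all genes. These were H2-T23, B2m, Stat2, Ifit1, Ifit3, Isg15, Bst2, Ifitm2 and Ifih1. The GAS core TTCNNNGAA was found in Psmb8, Ifnar2, Irf1, Ifit2 and Bst2, or 16.1%, beside 7.18% of all promoters. Both cores were found in Bst2, where they share bases, beside 0.788% of all promoters. A match describes these letters and is not a bound site, and no match says nothing of the factor. The members were gathered for their known response to interferon, so the shares are a description of the list.

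The ISRE matches of B2m and of the 5 interferon-induced members that hold the core follow with their flanks, because they cover members on both sides of the comparison. Capitals mark the core on either strand, and coordinates are of GRCm38.p6. B2m is read from chr2:122147536-122147568 and Isg15 from chr4:156200864-156200908. Ifit1 is read from chr19:34640768-34640825, and the matches of Ifit3 from chr19:34583362-34583394 and chr19:34583396-34583447. Bst2 is read from chr8:71537576-71537614 and Ifitm2 from chr7:140955987-140956019. Isg15, Bst2 and Ifitm2 are on the minus strand, and the others on the plus strand.
B2m: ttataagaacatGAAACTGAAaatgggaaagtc
Isg15: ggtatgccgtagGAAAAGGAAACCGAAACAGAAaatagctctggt
Ifit1: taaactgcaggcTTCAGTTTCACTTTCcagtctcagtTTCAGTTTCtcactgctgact
Ifit3, farther from the start: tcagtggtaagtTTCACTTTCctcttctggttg
Ifit3, nearer to the start: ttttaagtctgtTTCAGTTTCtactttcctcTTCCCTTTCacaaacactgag
Bst2: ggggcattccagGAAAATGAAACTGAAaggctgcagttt
Ifitm2: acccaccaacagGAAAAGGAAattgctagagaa

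Of the 9 members with an ISRE core, 6 had a share ratio below 1 and 3 above it. The intervals of Stat2 and Ifit1 held 1. Of all genes compared, 6669 lay below 0 and 6669 above by the centred difference, by construction. Whether members with the core differ from those without it was not tested. Isg15, with 3 overlapping matches, had a share ratio of 0.704, Bst2, with 2, had 0.697, and Ifit1, with 3, had 1.045. Ifit3, also with 3 matches, had a share ratio of 1.149, and Ifitm2, with 1, had 3.73. The other members with the core lay below 1, H2-T23 at 0.699, Ifih1 at 0.742, B2m at 0.905 and Stat2 at 0.949.

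The sensors of viral nucleic acid and their adaptors were also divided. Ddx58 and Ifih1 encode the RNA sensors RIG-I and MDA5, Mavs their adaptor on mitochondria, and Tmem173 the adaptor STING of the DNA sensing pathway. Ifih1 had 764 posterior and 325 anterior fragments, a share ratio of 0.742 (0.651 to 0.847). Ddx58 had 670 posterior and 248 anterior fragments, a share ratio of 0.853 (0.736 to 0.990). The sensors thus took a smaller share of the posterior library. Mavs had 1310 posterior and 259 anterior fragments, a share ratio of 1.60 (1.40 to 1.83) but a log2 difference of -0.05 by FPKM, and Tmem173 had 398 and 117, a share ratio of 1.074 (0.8715 to 1.331). All 4 were below 3.5 FPKM in both libraries.

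Other genes of these pathways were past 2-fold about as often as all genes compared. A list of 101 such genes gave 100 that matched and 64 that were compared. Of the 64, 5 were past 2-fold on the posterior side and 1 on the anterior side, with a median of 0.15, beside the same 8.19% and 1.84% of all genes. H2-Q7, a nonclassical class I gene, had 1711 posterior and 54 anterior fragments, a share ratio of 10 (7.63 to 13.4), with 39.2% of its words in other genes. Gbp6, a guanylate-binding protein gene, had 500 posterior and 13 anterior fragments, a share ratio of 12.1 (7.03 to 22.96), with 74.3% of its words in other genes. Rfxank, a subunit of the factor that binds class II promoters, had 1743 posterior and 253 anterior fragments, a share ratio of 2.17 (1.90 to 2.49), with 33.8% of its exonic bases under another gene. Trex1, a DNA-degrading enzyme gene, had 464 posterior and 0 anterior fragments, at least 48.8-fold higher if the anterior library is set to 3 fragments, and 100% of its exonic bases lie under another gene. On the anterior side was the nonclassical class I gene H2-T24, with 216 posterior and 392 anterior fragments, a share ratio of 0.174 (0.147 to 0.206). The 4 genes named on the posterior side thus share at least 33.7% of their words with other genes, against 6.61% for H2-T24. None of the 64 was past 2-fold on the posterior side once genes with at least 10% of shared words or overlap were left out. That setting leaves fewer of the 64, and 4.71% of all genes compared in it were past 2-fold on that side.

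The scale of the comparison changed which members stood out. By FPKM with the same pseudocount and centring, 2 of the 35 members were past 2-fold on the posterior side, Ifitm2 and Irf3, beside 14.5% of all genes compared. None was past 2-fold on the anterior side, beside 7.11% of all genes compared. The median of the members was -0.05, and 11 of the 35 changed sign between the scales. Irf3 had 19.7 FPKM in the posterior and 4.49 FPKM in the anterior library, a log2 difference of 1.39 by FPKM and of 0.33 by fragment share. Its anterior gene length exceeded its posterior effective length by 1.63 on the log2 scale. Psmb10 had a difference of 0.39 by FPKM and of -0.48 by fragment share, with a length difference of 1.24. Across 13310 genes the FPKM difference correlated with this length difference at r = 0.58, and the share difference at r = -0.039. These points share both libraries and are genes, not replicates.

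**Figure D3:**
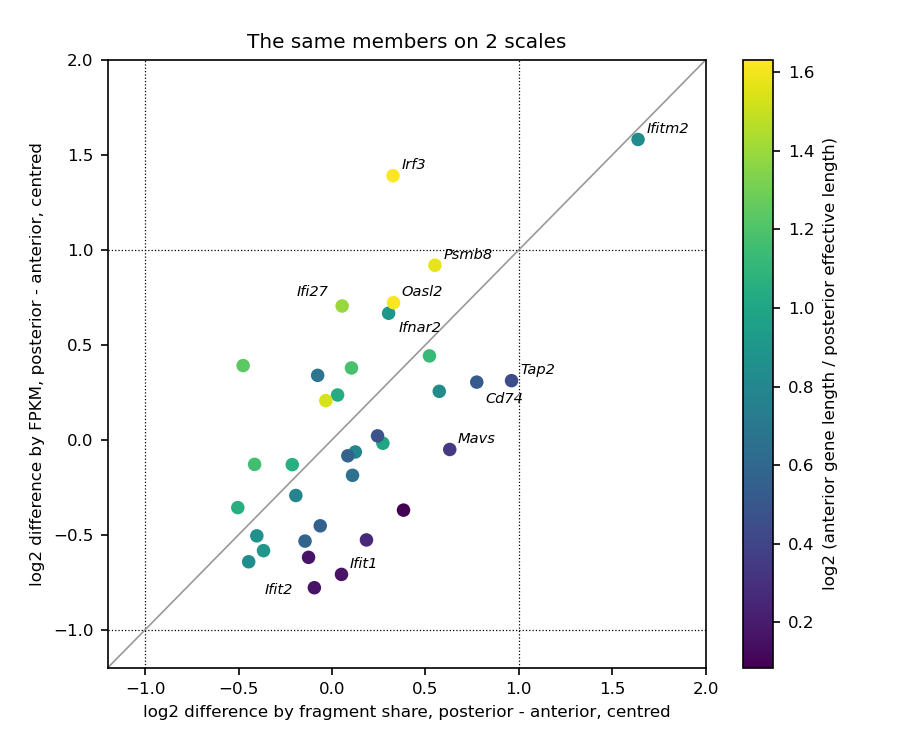
Centred log2 difference, posterior minus anterior, of the 35 members compared, by fragment share (horizontal axis) and by FPKM (vertical axis); colour shows log2 of anterior gene length over posterior effective length, the diagonal marks equal values, and dotted lines mark 2-fold. Ifitm2 is past 2-fold on both axes, and Irf3, at 1.39 by FPKM and 0.33 by fragment share, only on the vertical one.

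Transcript composition, given for the posterior library alone, showed that several members were led by transcripts not annotated as protein coding. Of the 39 members, 29 had an FPKM of at least 1 there and at least 2 annotated transcripts, and 6 members have a single transcript. By share of the gene's summed TPM, a unit scaled to effective length and to a total of 1000000 in the library, the leading transcript was not annotated protein coding in 6 of the 29, beside 6.67% of 11965 genes treated alike. H2-Eb1 was led by H2-Eb1-205, whose annotated class is nonsense-mediated decay, with 56.8% of TPM. Tap2 was led by the retained intron transcript Tap2-202 with 50.3%, close to the 49.7% of the protein-coding Tap2-201. Retained intron transcripts also led Psmb10 with 41.8%, Irf3 with 21.7% and Tmem173 with 45.0%, and a nonsense-mediated decay transcript led Oasl2 with 38.2%. By fragments, which are not scaled to length, 2 of the 29 members were led by such a transcript, beside 4.01% of the 11965 genes. Psmb10-201, the protein-coding transcript of Psmb10, held 57.1% of its fragments and 26.0% of its TPM. Salmon's estimation error per transcript is not used here, so these percentages carry no interval.

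A few members were carried almost wholly by a single protein-coding transcript, and others were spread over several. The leading transcript held at least 90% of TPM in 5 of the 29 members, beside 21.8% of the 11965 genes, with 99.8% for H2-Aa-201, 98.6% for Bst2-201 and 97.6% for H2-Ab1-201. It held less than 50% in 7 members, beside 26.1% of those genes. The classical class I genes were led by H2-D1-202 with 77.4% and H2-K1-201 with 66.5%, both protein coding. In Ifnar2 the short Ifnar2-203, of 1099 bases, held 73.4% of TPM and 47.9% of fragments, and the long Ifnar2-201, of 3047 bases, held 20.3% and 45.0%.

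**Figure D4:**
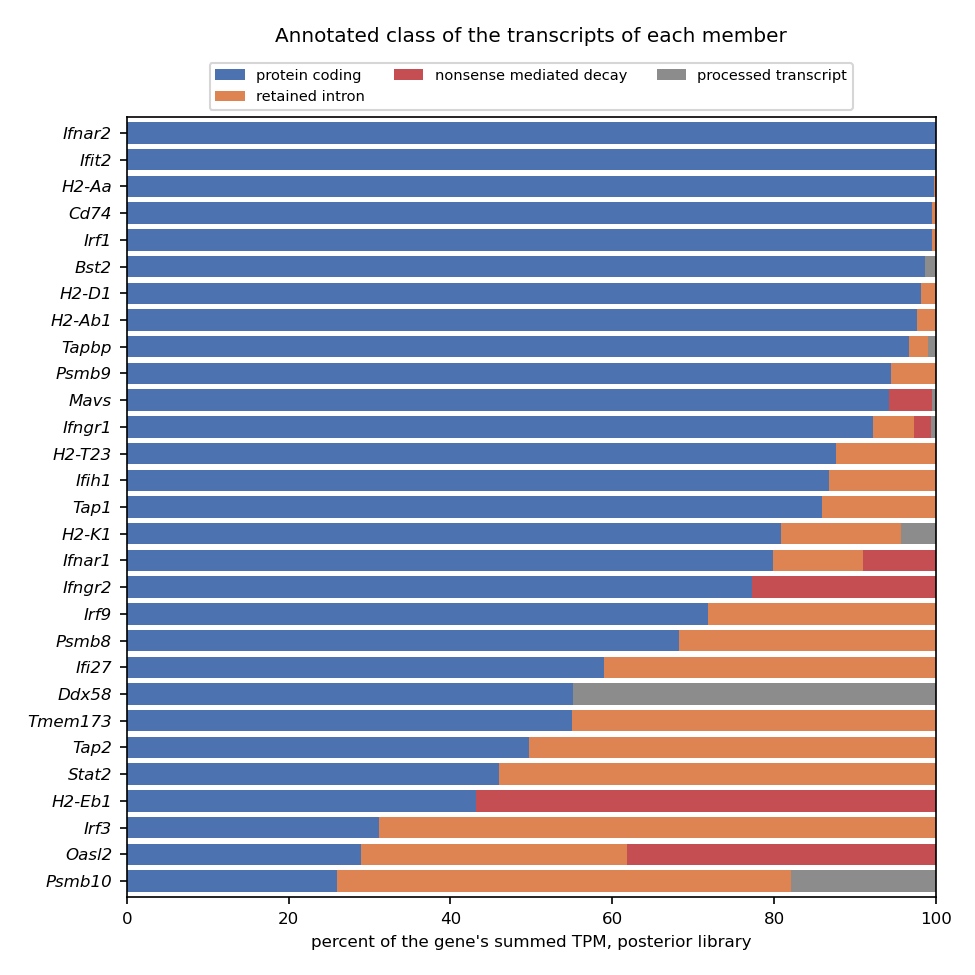
Percent of each gene's summed TPM in the posterior library by annotated transcript class, for the 29 members with an FPKM of at least 1 there and at least 2 transcripts, ordered by the protein-coding share. Psmb10, at the bottom, has 26.0% in its protein-coding transcript and H2-Aa, near the top, 99.8%.

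The cells of brain tissue that can express these genes were described by marker lists. The 12 microglial markers were present in both libraries, with none at 0 and none past 2-fold. They summed to 370.5 CPM posterior and 355.0 CPM anterior, a ratio of 1.04 (1.02 to 1.06). Of their intervals, 3 lay above 1, 6 below 1 and 3 held 1. C1qa, a complement gene of this list, had 41.7 FPKM in the posterior and 34.6 FPKM in the anterior library. The 9 endothelial markers gave a ratio of 0.918 (0.9004 to 0.936). Their leaders went opposite ways, Ly6c1 with a share ratio of 1.33 (1.24 to 1.43) and Itm2a with 0.641 (0.608 to 0.675). Ly6c1 has 46.8% of its words in other genes. Neuronal markers gave 0.693 (0.690 to 0.696), oligodendrocyte markers 1.87 (1.86 to 1.88) and astrocyte markers 1.204 (1.193 to 1.215). The neuronal list was led by Snap25 and Syt1, the oligodendrocyte list by Mbp, and the astrocyte list by Aldoc and Slc1a3. The lists were not uniform. Aldoc had a share ratio of 1.100 (1.085 to 1.115), Slc1a3 0.929 (0.914 to 0.944) and Gfap, of the same list, 2.59 (2.50 to 2.68). Of the neuronal markers, 4 had an interval below 1, and that of Map2, at 1.001 (0.992 to 1.011), held 1. All 8 choroid plexus markers were past 2-fold on the posterior side, with a summed ratio of 5.72 (5.61 to 5.84). The list was led by Ttr, with 83721 posterior and 4 anterior fragments, and Enpp2, with 80091 and 9569. Enpp2 thus held most of the 9718 anterior fragments of the list, and its own share ratio was 2.64 (2.59 to 2.70). All 5 ependymal markers were past 2-fold on the posterior side too, with a summed ratio of 6.60 (5.67 to 7.73). They were led by Rarres2 and Ccdc153, and Tmem212 was at 0 in the anterior library. The markers of neutrophils and monocytes summed to 477 posterior and 19 anterior fragments, a ratio of 7.92 (5.02 to 13.3). Among them Ly6c2 had 164 and 1, S100a9 144 and 6, S100a8 100 and 0 and Ccr2 69 and 12. Ly6g was at 0 in both libraries. T and NK cell markers summed to 786 posterior and 1085 anterior fragments, a ratio of 0.229 (0.208 to 0.251). Of these, Trbc2, with 48.5% of its words in other genes, held 546 and 1026. Cd4 held 167 and 50, and Cd3d was at 0 in both libraries. Cd8a went the other way from the sum, with 56 and 3 fragments and a share ratio of 5.89 (1.92 to 29.4). B cell markers summed to 2224 posterior and 1779 anterior fragments, a ratio of 0.395 (0.371 to 0.420). Ighm held 2087 and 1752 of these. The part of any of these cells in the members' values was not tested.

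**Figure D5:**
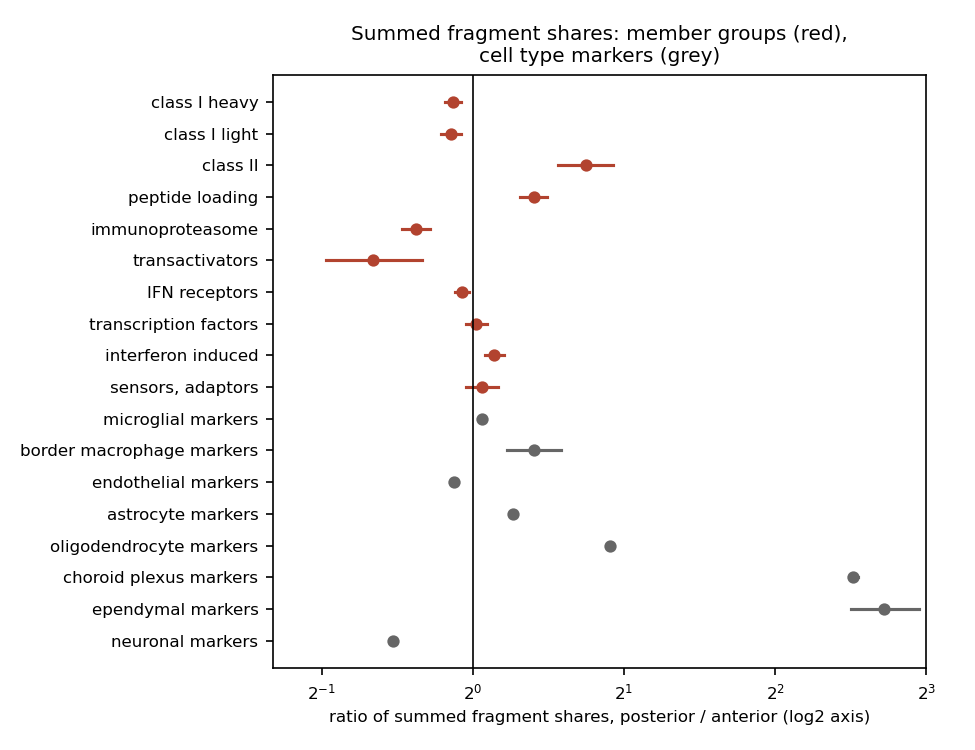
Ratio of summed fragment shares, posterior over anterior, on a log2 axis, for the 10 roles among the members (red) and 8 cell type marker lists (grey), with bars for the 95% counting interval. Class II members, at 1.68, are the highest of the roles, and microglial markers stand at 1.04. Choroid plexus markers stand at 5.72, with most of their anterior fragments in Enpp2.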

How the data were processed

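Polyadenylated RNA of 1 posterior and 1 anterior brain tissue sample was sequenced. The authors deposited anterior FPKM per gene, after alignment with HISAT2 2.0.5 to mm10 per the submitters' processing notes; no source used here names the counting program, the annotation or the strand setting. The posterior file deposited by the authors holds estimated counts and TPM per transcript, made with Salmon per the labels' protocols, with no version or options named.

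Anterior fragments were recovered as FPKM times gene length, whole multiples of 27.4 for 100% of 54532 genes within a tolerance of 0.001. Posterior estimated counts were summed per gene, and posterior FPKM was computed from them and the effective lengths. The total in protein-coding genes was 134495505 posterior and 42447919 anterior fragments. The main difference was log2 of CPM (over protein-coding genes) plus 0.5, centred on the median gene (shift 0.00298; 0.63 for FPKM), over 13339 protein-coding genes. With 1 library per position no test was run and a 2-fold rule stood in for one. On simulated data it recovered 200 of 200 changed genes, which were set well past 2-fold, in genes with many fragments and with counting error alone. That check therefore says nothing of low genes or of spread between animals and methods. Shared words and exonic overlap came from GENCODE M21, which held 139172 of the 140992 posterior transcripts. Promoter and motif data came from RefSeq tables; entries were missing for 8 members.

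All members are accounted for. Other pathway genes are named where they were past 2-fold by fragment share with the same sign by FPKM, and the 2 genes of highest FPKM are named for marker lists; a few genes that this rule covers are not reported here. The members and lists were chosen with earlier results of these data known. Python 3.11.15, pandas 2.3.3, scipy 1.17.1 and edgeR 4.0.16 (TMM factors alone) were used.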

Additional observations from a re-analysis of the deposited data

How the results depend on the processing

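No paired analysis was possible because each position had 1 library. The number of members past 2-fold on the posterior side was 1, and became 2 by FPKM (with Irf3), 2 with a pseudocount of 0.1 (with Tap2) and 0 without genes that have overlap or shared words. The number past 2-fold on the anterior side was 0, and became 1 without a filter on low values (Ciita) and 1 with protein-coding transcripts alone (Psmb10, at -1.15). On that side the share of all genes was 1.84%, and became 1.61% and 4.85%. Of the other pathway genes, the posterior count of 5 became 10 by FPKM, 2 at an FPKM of at least 5 and 0 without overlap or shared words. The anterior count of 1 became 2 by FPKM, 0 at an FPKM of at least 5 and 2 with protein-coding transcripts. At an FPKM of at least 5, 6.24% of all genes were past 2-fold on the posterior and 1.11% on the anterior side. By FPKM 7.11% were on the anterior side. The median of the members, 0.08, became -0.052 by FPKM and -0.026 with protein-coding transcripts, where 11 and 8 of 35 members changed sign. A pseudocount of 1, no centring and TMM scaling kept every one of these counts within 1.5 times and the median between 0.07 and 0.09. The settings that leave genes out compare fewer of them; otherwise the cause of each move was not tested. With few fragments in class II genes, Ciita, Nlrc5 and Usp18, counting error alone spans wide intervals.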
